A study of Mus musculus with 6 samples.

Results

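The genes described here encode carriers that move amino acids and amine neurotransmitters across membranes, in 7 solute carrier families of the mouse (Slc1, Slc3, Slc6, Slc7, Slc36, Slc38 and Slc43). Members were chosen by symbol, as every gene of those families in the deposited count table, which gave 63 of 25239 genes. Their levels were measured in fully grown mouse oocytes by Smart-seq2, in which poly(A) RNA is copied into cDNA along its whole length and amplified by PCR. The wild-type (WT) group and the Gdf9-cre Nat10 conditional knockout (cKO) group had 3 libraries each. Females of both groups received PMSG, a gonadotropin that drives follicle growth, and oocytes were taken 36 to 48 h later. Gdf9-cre acts in oocytes, so the deletion concerns the germ cell and not the follicle cells around it. The labels do not give the age of the females, the number of oocytes per library, or whether WT females carried the cre or the floxed allele. They also do not say that the 3 libraries of a group came from separate animals, so p-values reflect only how these libraries vary, which may be technical. The question was which carriers differ in mRNA level when the oocyte lacks NAT10, the enzyme that acetylates cytidine in RNA.

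The families differ in what drives transport. Slc1 and Slc6 carriers use the sodium gradient, and Slc6 includes the neurotransmitter reuptake carriers of neurons, such as those for dopamine, serotonin, glycine and GABA. Many Slc7 proteins are light chains that reach the membrane only when bound to an Slc3 heavy chain, while Slc36 and Slc38 include lysosomal carriers that pass on the amino acid state of the cell to the kinase complex mTORC1. In mouse oocytes glycine taken up by GLYT1, the product of Slc6a9, is known to serve as an osmolyte that sets cell volume.

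Library totals ranged from 20167665 to 29407659 counts, and 44 to 50 members had at least 1 count in a library. Levels are given as CPM, counts scaled to a library total adjusted by TMM, a factor that centres most genes, and as CPM per kb of exon where genes are compared with each other. A library with 0 counts of a gene allows up to 3, which corresponds to 0.100 to 0.153 CPM for counting error only. Nat10 lay at 48.0, 45.0 and 64.5 CPM in WT and at 7.18, 7.64 and 7.98 CPM in cKO (log2 fold change -2.79 ± 0.19, SE; adjusted p = 1.95e-06). Differences were tested with edgeR's quasi-likelihood test over 14114 genes, two-sided, with Benjamini-Hochberg adjustment at 0.05. Of all genes tested, 40.2% were called, 20.1% higher and 20.1% lower in cKO, and 18.2% were called with at least a 2-fold change. Because the libraries are bulk samples of oocytes, fewer cells of a type and less RNA per cell cannot be told apart.

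Of the 63 carriers, 39 passed the filter on low counts and 14 of those were called, 7 higher and 7 lower in cKO. This is 35.9% of the tested members against 40.2% of all genes, and 80 of 202 other tested Slc genes were called (39.6%). The change reached 2-fold in 8 of the 14. The libraries of the groups did not overlap for 19 of the 39 tested members (48.7%), against 52.0% of all genes. By family, the calls comprised 9 of 14 tested Slc6 genes, 2 of 8 in Slc7, 2 of 9 in Slc38, 1 of 2 in Slc3 and none of the 6 tested in Slc1, Slc36 and Slc43. In 2 tested members every library of 1 group lay under the filter's cutoff of 0.368 CPM, Slc6a3 in WT and Slc6a14 in cKO. Slc6a5 also passed through its cKO libraries, since only WT 3 of the WT libraries lay over the cutoff. Some members that were not called were in the same position. The median log2 fold change of tested members was 0.25, beside 0.01 for all genes.

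With library totals in place of TMM the same 14 members were called, where 24.4% of all genes were called higher and 16.0% lower. With each library scaled to the ERCC spike-in RNA that the authors added, the median log2 fold change of all genes shifted to -0.39, 8.37% of all genes were called higher and 34.2% lower. Under that scaling 3 members were called higher (Slc6a3, Slc6a4 and Slc6a5) and 11 lower, the 7 lower ones above among them. Slc3a2, Slc6a9, Slc6a16 and Slc38a7 were then not called.

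**Figure D1:**
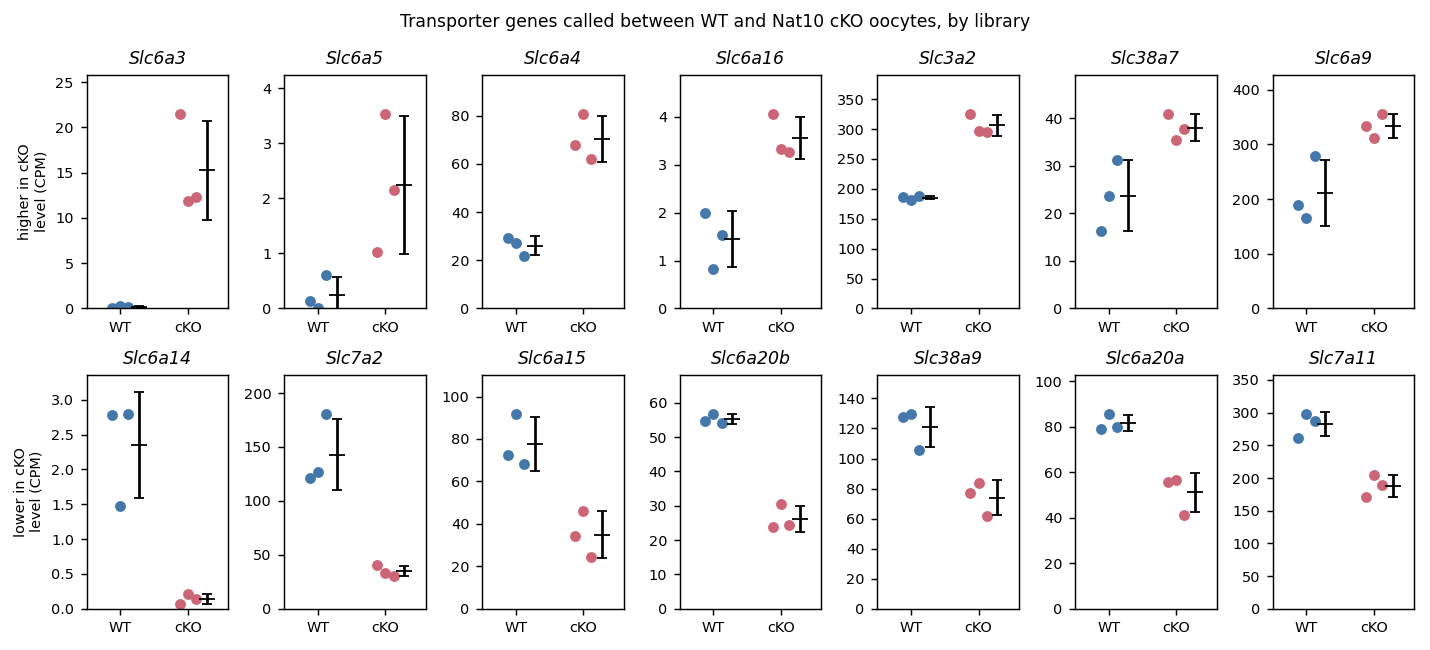
Level (CPM, linear axis from 0, a separate scale for each gene) of the 14 called carriers in each library, with points for libraries and bars for the group mean ± SD (n = 3). The 7 genes of the upper row were higher in cKO and the 7 of the lower row were lower, and in none of the 14 do the points of the groups overlap; under spike-in scaling Slc3a2, Slc6a9, Slc6a16 and Slc38a7 were not called.

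Most of the carrier mRNA came from few genes. The summed level of all 63 was 372 ± 18.8 CPM per kb in WT and 408 ± 10.9 CPM per kb in cKO (SD, n = 3). The cKO sum was 109.6% of WT with TMM and 83.3% with spike-in scaling, so its direction depends on the scaling. Slc3a2, Slc6a9 and Slc6a20a together made up 43.8% of the sum in WT and 54.3% in cKO. The 10 most abundant members, which also include Slc43a3, Slc7a11, Slc6a4, Slc38a8, Slc6a15, Slc6a20b and Slc6a6, made up 80.1% and 83.0%. Slc3a2 alone went from 16.9% ± 0.859 to 25.4% ± 0.972 of the sum, and Slc6a9 from 15.3% ± 3.77 to 22.3% ± 1.97. Without these 2 genes the cKO sum was 84.7% of WT. By substrate group, the glycine and proline carriers summed to 62.2 ± 16.8 CPM per kb in WT and 96.4 ± 6.33 in cKO. Most of that sum was Slc6a9 alone, at 57.4 and 90.6 CPM per kb. The neutral amino acid carriers and orphans of Slc6 summed to 83.3 ± 6.40 and 47.1 ± 8.11. That group holds Slc6a20a and Slc6a15, which also carry proline, so the sums do not describe proline carriers as a set.

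**Figure D2:**
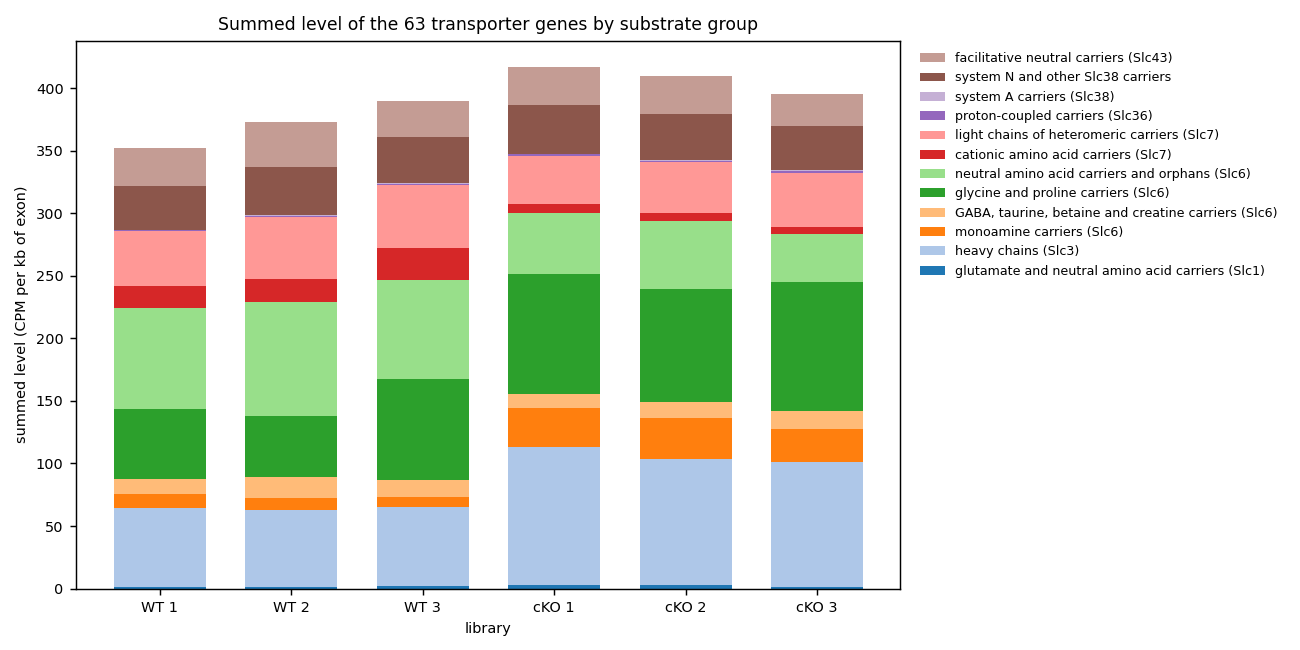
Summed level (CPM per kb of exon, axis from 0) of the 63 carriers in each library, stacked by substrate group. The cKO bars hold larger blocks of heavy chains and of the glycine and proline group, which is mostly Slc6a9. Their blocks of cationic carriers and of neutral Slc6 carriers, some of which also carry proline, are smaller. With spike-in scaling the cKO sum was 83.3% of WT.

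Among the monoamine carriers, Slc6a3 and Slc6a4 rose in cKO. Slc6a3 (chr13:73536747-73578672, plus strand, mm10) encodes the dopamine transporter DAT, which in neurons returns dopamine from the synapse. It had 0, 6 and 4 counts in the WT libraries, which is 0, 0.277 and 0.203 CPM, and reached 21.5, 11.9 and 12.3 CPM in cKO. The gene was thus near the detection limit in every WT library and well above it in every cKO library, with cKO 1 highest. The cKO mean was 95.2-fold the WT mean (log2 fold change 6.65 ± 0.55, SE; edgeR adjusted p = 7.17e-06). Since the WT level rests on few counts, the log2 fold change moved to 5.97 without WT 1 and to 7.41 without WT 2.

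Slc6a4, the gene of the serotonin transporter SERT, was already present in WT oocytes, at 29.3, 27.3 and 21.7 CPM, and reached 68.0, 80.9 and 62.1 CPM in cKO. The lowest cKO library lay above the highest WT library, and the log2 fold change was 1.43 ± 0.17 (edgeR adjusted p = 4.69e-05). SERT mRNA therefore remained the more abundant of the pair: per kb of exon, Slc6a4 exceeded Slc6a3 by 124- and 134-fold in the WT libraries with a Slc6a3 count and by 3.98- to 8.59-fold in cKO. Slc6a2, the norepinephrine transporter, had no count in WT and up to 0.140 CPM in cKO, and was not tested. The promoter windows of the 2 called monoamine carriers are shown because both rose; they run from 250 bases before to 50 bases after the start in RefSeq GRCm38.p6, plus strand for both, with CG dinucleotides in capitals. The Slc6a3 window is chr13:73536497-73536796 and holds 20 CG dinucleotides, and the Slc6a4 window is chr11:76998347-76998646 and holds 28. The median is 7 over all 32851 windows (quartiles 3 and 20) and 10 over the 66 windows of the 45 members that matched (quartiles 5 and 20.8). The Slc6a3 window thus lies at the upper quartile of all windows.
Slc6a3: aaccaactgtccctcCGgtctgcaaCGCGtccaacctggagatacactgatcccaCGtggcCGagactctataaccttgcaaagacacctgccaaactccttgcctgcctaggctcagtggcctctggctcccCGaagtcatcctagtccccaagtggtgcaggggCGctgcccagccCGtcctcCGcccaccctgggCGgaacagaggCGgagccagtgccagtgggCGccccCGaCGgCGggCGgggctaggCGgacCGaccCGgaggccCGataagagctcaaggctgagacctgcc
Slc6a4: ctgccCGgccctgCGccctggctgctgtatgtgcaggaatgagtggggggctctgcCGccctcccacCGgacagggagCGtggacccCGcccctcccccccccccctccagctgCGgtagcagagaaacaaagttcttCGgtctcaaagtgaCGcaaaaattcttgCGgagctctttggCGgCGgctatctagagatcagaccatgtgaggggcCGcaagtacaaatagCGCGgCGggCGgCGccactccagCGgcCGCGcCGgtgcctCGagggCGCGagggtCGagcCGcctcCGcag

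The genes within 200 kb of Slc6a3 did not move in 1 direction. Lpcat1, upstream, which encodes an enzyme of phosphatidylcholine remodelling, fell from 288 ± 8.22 CPM in WT to 206 ± 13.4 CPM in cKO (log2 fold change -0.48 ± 0.11; edgeR adjusted p = 0.00371). Downstream, Clptm1l rose from 58.1 ± 2.06 to 123 ± 17.6 CPM (1.09 ± 0.14; adjusted p = 8.58e-05) and Tert, the catalytic subunit of telomerase, fell from 54.5 ± 8.85 to 32.7 ± 3.79 CPM (-0.73 ± 0.17; adjusted p = 0.00366). Slc12a7, a potassium-chloride cotransporter, was not called (50.2 ± 11.3 and 59.8 ± 9.67 CPM). Slc6a18 and Slc6a19, the members of the same family that neighbour Slc6a3 on the other strand, were at or near 0 (4 counts of Slc6a18 in WT 1, and no count of Slc6a19), and Eprn and Slc6a19os were not tested.

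Among the glycine and proline carriers, both glycine transporters rose, and Slc6a14 fell. Slc6a9 lay at 189, 165 and 279 CPM in WT and at 333, 312 and 356 CPM in cKO. WT 3 was the highest WT library and still below each cKO library (log2 fold change 0.66 ± 0.17; edgeR adjusted p = 0.00727). Of the distinct 50-base stretches of its transcripts 26.3% also occur in another gene, mostly in Ccdc24 on the other strand, which itself lay between 0.467 and 2.03 CPM. The counted exons of Slc6a9 overlap those of Ccdc24 by 46 bases only, 1.25% of the exonic length of Slc6a9. With spike-in scaling its log2 fold change was 0.29 (adjusted p = 0.281), and after removal of a trend with transcript length and GC content, a setting chosen after seeing the data, it was 0.39 (adjusted p = 0.0222). Slc6a5 encodes GLYT2, the carrier that loads glycinergic neurons. It lay at 0.143, 0 and 0.610 CPM in WT and at 1.03, 3.54 and 2.16 CPM in cKO, so that no cKO library was as low as any WT library. Only WT 3 of the WT libraries lay over the filter's cutoff of 0.368 CPM, so Slc6a5 was tested through its cKO libraries. Its log2 fold change was 3.20 ± 0.83 (edgeR adjusted p = 0.00817) on levels close to the detection limit in WT. With a library left out it ranged from 2.64 without WT 2 to 4.76 without WT 3, and the adjusted p was at most 0.0479, without cKO 2.

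Slc6a14 encodes ATB0,+, a carrier of neutral and cationic amino acids. It lay at 2.78, 1.48 and 2.80 CPM in WT and at 0.0667, 0.210 and 0.144 CPM in cKO, where every library was near the limit of 3 counts. The cKO mean was 5.97% of WT (log2 fold change -4.03 ± 0.61; edgeR adjusted p = 0.000276). Slc6a7, the brain proline transporter PROT, was not called: it lay at 13.5 ± 0.771 CPM in WT and 16.3 ± 1.82 CPM in cKO (0.27 ± 0.19; adjusted p = 0.278).

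Of the 8 neutral amino acid carriers and orphans of Slc6, 5 were tested, and 3 fell and 1 rose. Among those that fell, Slc6a20a encodes a carrier of proline and related amino acids. Slc6a20a lay at 79.2, 85.8 and 79.9 CPM in WT and at 55.7, 56.5 and 41.4 CPM in cKO (log2 fold change -0.67 ± 0.15; edgeR adjusted p = 0.00329). Its paralogue Slc6a20b lay at 54.7, 56.8 and 54.1 CPM in WT and at 23.7, 30.6 and 24.4 CPM in cKO (-1.07 ± 0.15; adjusted p = 0.000197). The groups were clearly apart for both genes. Each of these genes is uncertain, because 26.7% and 27.9% of their distinct 50-base stretches also occur in another gene. Slc6a20b was the main one for Slc6a20a, and Sacm1l for Slc6a20b. The stretches come from all annotated transcripts, and the counted exons of Slc6a20b do not overlap those of Sacm1l. Sacm1l was not called (28.8 ± 2.99 and 24.5 ± 4.41 CPM).

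Slc6a15, which encodes B0AT2, a carrier of branched-chain amino acids and proline, lay at 72.5, 91.8 and 68.1 CPM in WT and at 34.2, 46.2 and 24.2 CPM in cKO. All cKO libraries were below all WT libraries, and the cKO mean was 45.0% of WT (log2 fold change -1.15 ± 0.21; edgeR adjusted p = 0.000991). The orphan carrier gene Slc6a16 was higher at a low level, at 2.00, 0.830 and 1.53 CPM in WT and 4.07, 3.33 and 3.27 CPM in cKO (1.28 ± 0.38; adjusted p = 0.0165). This last call ended without WT 2 (adjusted p = 0.0542) and without cKO 1 (adjusted p = 0.0625). Slc6a21 was not called (3.96 ± 1.62 and 2.91 ± 0.358 CPM). Slc6a17 and Slc6a19 had no count, and Slc6a18 had a count in WT 1 alone.

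None of the 3 tested carriers of GABA, taurine and betaine was called. Slc6a6, the taurine transporter, was the main one, at 70.0, 83.7 and 77.4 CPM in WT and 60.8, 67.4 and 68.9 CPM in cKO (log2 fold change -0.23 ± 0.13; edgeR adjusted p = 0.19). Its groups lay apart by a small margin only, and it was called lower with spike-in scaling (-0.64; adjusted p = 0.014). The betaine and GABA carrier Slc6a12 lay at 1.41 ± 1.22 and 3.21 ± 1.198 CPM and the GABA carrier Slc6a13 at 1.88 ± 1.79 and 1.99 ± 0.831 CPM. Slc6a8, the creatine transporter, and the GABA carrier Slc6a11 had counts but were not tested.

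**Figure D3:**
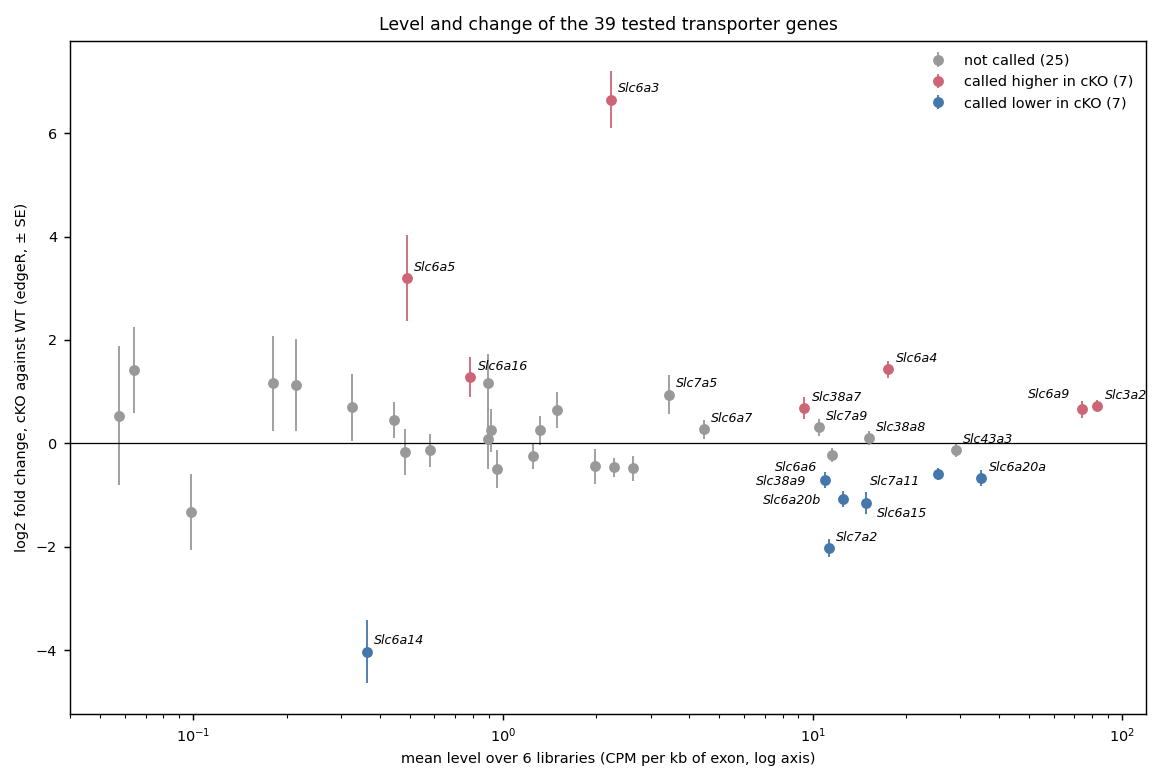
Log2 fold change of cKO against WT (edgeR, bars ± SE) against mean level (CPM per kb of exon, log axis) for the 39 tested carriers, coloured by call. Slc3a2 and Slc6a9 lie at the right with changes of 0.72 and 0.66, the fold changes of Slc6a3, Slc6a5 and Slc6a14 belong to genes of low level, and the 7 calls below 0 include Slc7a2 at -2.03; Slc3a2, Slc6a9, Slc6a16 and Slc38a7 were not called under spike-in scaling.

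The heavy chain Slc3a2 and its most abundant light chain Slc7a11 changed in opposite directions. Slc3a2 encodes 4F2hc (CD98), the subunit that carries several Slc7 light chains to the cell surface. It was the most abundant member, at 186, 182 and 188 CPM in WT and 326, 297 and 295 CPM in cKO, with narrow spread and no overlap (log2 fold change 0.72 ± 0.11; edgeR adjusted p = 0.000258). With spike-in scaling its change was 0.33 and was not called (adjusted p = 0.209). Slc7a11 encodes xCT, which pairs with 4F2hc and exchanges cystine for glutamate. It lay at 262, 298 and 287 CPM in WT and 171, 204 and 189 CPM in cKO, again without overlap (-0.59 ± 0.12; adjusted p = 0.00167). After removal of the length and GC trend its change was -0.21 and was not called (adjusted p = 0.136).

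Among the other light chains of 4F2hc none was called in the main edgeR test, with TMM, the filter on low counts and no block. Slc7a5, the LAT1 light chain for large neutral amino acids, lay at 4.56, 7.20 and 13.0 CPM in WT and 12.7, 9.71 and 24.996 CPM in cKO, with overlap (log2 fold change 0.94 ± 0.38; edgeR adjusted p = 0.066). It was called higher by DESeq2, by limma-voom, with no filter on low counts, with the replicate number as a block, without WT 3 and without cKO 2. Slc7a6, Slc7a7 and Slc7a8, the light chains y+LAT2, y+LAT1 and LAT2, had means between 3.37 and 7.70 CPM in WT and between 3.98 and 5.50 CPM in cKO. Slc7a8 was called higher without WT 3, and Slc7a7 was called lower with spike-in scaling. The 5 light chains together summed to 38.2 ± 3.63 CPM per kb in WT and 29.2 ± 2.53 CPM per kb in cKO, and Slc7a11 made up 80.3% ± 4.04 and 69.9% ± 5.77 of that sum. The ratio of Slc3a2 to this sum, both per kb, was 1.84, 1.56 and 1.54 in the WT libraries and 4.13, 3.44 and 3.14 in the cKO libraries. Being a ratio within a library, it does not depend on the scaling factor of the library, but a trend with transcript length and GC content can move it. After removal of that trend the log2 fold change was 0.61 for Slc3a2 and -0.21 for Slc7a11, which was then not called.

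The other heavy chain was almost absent. Slc3a1, which encodes rBAT, lay at 0.245 ± 0.347 CPM in WT and 0.590 ± 0.0467 CPM in cKO and was not called, and 26.3% of its exonic length overlaps Prepl on the other strand, a gene at 125 ± 19.97 CPM in WT. Its known partner Slc7a9, the b0,+AT light chain for cystine and cationic amino acids, lay at 9.37 CPM per kb in WT and 11.6 CPM per kb in cKO, against 0.106 and 0.256 CPM per kb for Slc3a1. Slc7a9 was not called (18.6 ± 1.43 and 23.0 ± 0.823 CPM; log2 fold change 0.31 ± 0.17; edgeR adjusted p = 0.166). Slc7a10, Slc7a12 and Slc7a13 had no count, and Slc7a15 was not tested.

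**Figure D4:**
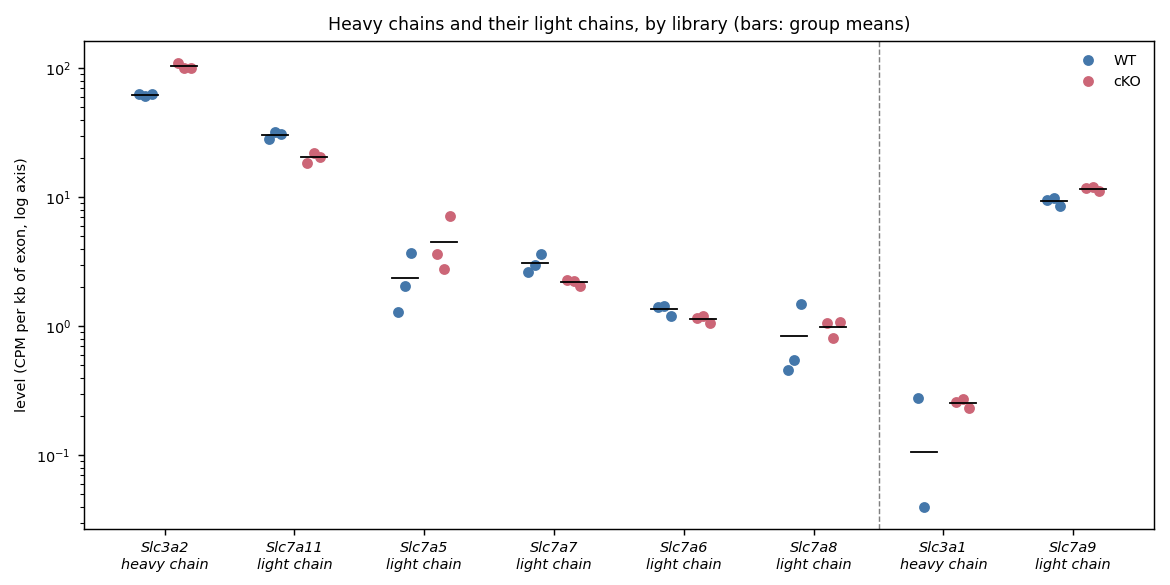
Level (CPM per kb of exon, log axis) of heavy chains and light chains in each library, with bars for group means; the count of 0 of Slc3a1 in WT 3 is not drawn. Slc3a2 lies higher in cKO and Slc7a11 lower, and at the right Slc7a9 lies far above its heavy chain Slc3a1 in every library; with spike-in scaling Slc3a2 was not called.

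The promoter windows of Slc3a2 and Slc7a11 are shown because the partners moved apart and because Slc7a11 is a known target of the amino acid response factor ATF4. The windows are from RefSeq GRCm38.p6, minus strand, at chr19:8713848-8714147 for Slc3a2 and chr3:50443564-50443863 for Slc7a11, written 5' to 3' along the gene. Capitals mark matches to TGATGNAA, the core of the C/EBP-ATF response element, searched on both strands. The Slc7a11 window holds 1 match on each strand and the Slc3a2 window holds none. However, the Slc3a2 window lies inside the counted span of the gene, whose 5' end is at chr19:8723369, and no window at that end was searched. The motif occurs in 5 of the 66 member windows (7.58%) and in 3.97% of all 32851 windows. Slc7a7 accounts for more than 1 of the 5, in windows that overlap each other. A match is a description of the letters and not a site of binding, and its bearing on the change of either gene was not tested.
Slc3a2: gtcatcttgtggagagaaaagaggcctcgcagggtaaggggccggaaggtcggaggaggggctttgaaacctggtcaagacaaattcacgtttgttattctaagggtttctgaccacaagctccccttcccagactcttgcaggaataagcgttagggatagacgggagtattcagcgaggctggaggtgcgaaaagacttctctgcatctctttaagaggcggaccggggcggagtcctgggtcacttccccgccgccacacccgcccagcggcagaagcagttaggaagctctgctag
Slc7a11: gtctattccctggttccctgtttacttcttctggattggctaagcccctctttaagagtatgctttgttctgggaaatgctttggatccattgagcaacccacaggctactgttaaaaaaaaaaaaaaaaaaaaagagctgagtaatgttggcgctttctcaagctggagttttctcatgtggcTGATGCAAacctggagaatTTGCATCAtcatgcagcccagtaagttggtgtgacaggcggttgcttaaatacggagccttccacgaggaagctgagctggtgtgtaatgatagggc

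Of the cationic amino acid carriers 2 were tested, and Slc7a2 fell. This gene encodes CAT2, a carrier of arginine, lysine and ornithine, and lay at 121, 126 and 181 CPM in WT and at 40.1, 33.5 and 30.8 CPM in cKO. The groups were far apart, the cKO mean being 24.4% of WT (log2 fold change -2.03 ± 0.17; edgeR adjusted p = 8.04e-06). Slc7a1, the more widely expressed CAT1, was not called (19.1 ± 1.04 and 13.9 ± 2.19 CPM; -0.47 ± 0.19; adjusted p = 0.0663) but was called lower with spike-in scaling. Per kb, Slc7a2 exceeded Slc7a1 by 6.13- to 8.22-fold in WT and by 1.76- to 3.15-fold in cKO. Slc7a3, Slc7a4 and Slc7a14 had means of at most 0.774 CPM in a group and were not tested.

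Among the Slc38 carriers, a lysosomal gene rose and another fell. Slc38a9 encodes the lysosomal arginine sensor and amino acid exporter that signals to mTORC1. It lay at 127, 129.8 and 106 CPM in WT and at 76.8, 83.8 and 61.5 CPM in cKO, without overlap (log2 fold change -0.71 ± 0.15; edgeR adjusted p = 0.00213). Its change was -0.42 after removal of the length and GC trend (adjusted p = 0.0217) and -1.12 with spike-in scaling. Slc38a7, a carrier known to export glutamine from lysosomes in human cells, lay at 16.3, 23.6 and 31.3 CPM in WT and at 41.0, 35.4 and 37.7 CPM in cKO. Its groups did not overlap, but the WT libraries were widely spread (0.68 ± 0.21; adjusted p = 0.0212). The call ended without WT 1, WT 2 or cKO 1 (adjusted p = 0.0872, 0.0567 and 0.074), with spike-in scaling (0.32), and after removal of the length and GC trend (0.0604).

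Slc38a8, a glutamine carrier, was as abundant as these and was not called, at 38.4 ± 2.69 CPM in WT and 41.2 ± 1.99 CPM in cKO (log2 fold change 0.10 ± 0.14; edgeR adjusted p = 0.602), a difference whose sign depends on the scaling. The system A genes Slc38a1, Slc38a2 and Slc38a4, sodium-coupled carriers of small neutral amino acids in most tissues, were all below 1 CPM in both groups on average and were not called. Slc38a2 was the member of this trio without overlap, at 0.713, 0.646 and 0.610 CPM in WT and 0.0667, 0.351 and 0.360 CPM in cKO (-1.34 ± 0.74; adjusted p = 0.167). Slc38a6, Slc38a10 and Slc38a11 were not called, and Slc38a3 and Slc38a5, the system N carriers, were not tested.

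The Slc1, Slc36 and Slc43 genes held no call. The glutamate carrier Slc1a1 (EAAT3), which shares 31.0% of its distinct 50-base stretches with another gene, lay at 4.35 ± 1.64 CPM in WT and 6.79 ± 2.39 CPM in cKO, and Slc1a5 (ASCT2), a carrier of neutral amino acids, at 0.683 ± 0.300 and 1.11 ± 0.845 CPM. The glial glutamate carriers Slc1a2 and Slc1a3 and the genes Slc1a4, Slc1a6 and Slc1a7 had counts but were not tested. Slc36a1, the proton-coupled carrier PAT1 of lysosomes and plasma membrane, lay at 6.35 ± 1.51 and 7.53 ± 2.36 CPM. Slc36a2 and Slc36a3 had no count, and Slc36a4 had a count in cKO 2 alone. Slc43a3, known in human cells as a carrier of purine nucleobases, was the fourth most abundant member, at 75.4, 88.9 and 72.1 CPM in WT and 75.4, 76.6 and 64.5 CPM in cKO, with overlap (log2 fold change -0.13 ± 0.14; edgeR adjusted p = 0.495). It was called lower with spike-in scaling (-0.53; adjusted p = 0.0431). The large neutral amino acid carriers Slc43a1 and Slc43a2 had means between 2.32 and 3.71 CPM.

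In all, 8 members had no count in any library and 16 had counts but too few for a test, with group means of at most 0.774 CPM. Slc7a14 was the untested member with the highest mean, at 0.214, 0.0461 and 0.102 CPM in WT and 1.47, 0.351 and 0.504 CPM in cKO, without overlap, and it was called higher with no filter on low counts, without WT 1 and without cKO 2. Of the 23 members with a mean of at least 1 CPM per kb, 11 were called and 12 were not. The share of all genes called at that level was not taken, so this count does not set the members apart.

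Genes that act with the carriers were read from the same test. Of 35 genes of amino acid sensing by mTORC1, 9 were called higher and 5 lower (40.0%, the share of all genes being 40.2%), with a median log2 fold change of 0.30. Itfg2, a subunit of the KICSTOR complex, rose from 7.13 ± 2.67 to 21.6 ± 0.975 CPM (adjusted p = 0.000384), and Tsc2, an inhibitor of mTORC1 signalling, rose from 21.7 ± 2.99 to 37.6 ± 4.11 CPM (adjusted p = 0.00278). Fnip1, the partner of folliculin, which acts on the Rag GTPases, fell from 33.6 ± 3.20 to 17.4 ± 1.45 CPM (adjusted p = 0.000798). Rragb, among the genes called higher, passed the filter on low counts through cKO alone, with 0, 0 and 2 counts in WT.

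In the amino acid response, 2 of 19 tested genes were higher and 2 lower (21.1% called, against 40.2% of all genes; median log2 fold change -0.05). Ddit3, the transcription factor CHOP, rose from 53.2 ± 9.36 to 138 ± 4.58 CPM (edgeR adjusted p = 2.7e-05), and Trib3, a pseudokinase induced downstream of it, from 0.911 ± 0.182 to 4.68 ± 2.63 CPM (adjusted p = 0.0012). Eif2ak4, the kinase GCN2 that senses uncharged tRNA, fell from 65.3 ± 4.93 to 36.4 ± 2.48 CPM (adjusted p = 0.00056). In glutathione synthesis, which uses the cystine that xCT imports, 2 of 8 tested genes were higher and 2 lower. This is 50.0%, against 40.2% of all genes, with a median log2 fold change of 0.09. Gclm and Gclc, the subunits of glutamate-cysteine ligase, rose from 16.4 ± 2.64 to 52.8 ± 22.7 CPM (adjusted p = 0.000291) and from 3.995 ± 0.491 to 8.50 ± 3.23 CPM (adjusted p = 0.0101). Ggt1, which breaks down extracellular glutathione, fell from 34.0 ± 2.80 to 18.5 ± 0.630 CPM (adjusted p = 0.001).

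Of the dopamine genes, 2 of 6 tested were higher and 2 lower (66.7% called, against 40.2% of all genes; median log2 fold change 0.11). Gch1, which makes the cofactor for tyrosine hydroxylase, rose from 61.8 ± 11.8 to 106 ± 11.3 CPM (edgeR adjusted p = 0.00184), and the dopamine receptor gene Drd3 rose at a low level, from 0.450 ± 0.333 to 1.90 ± 0.393 CPM (adjusted p = 0.0116). Maob, a monoamine oxidase, fell from 29.7 ± 3.23 to 19.3 ± 1.81 CPM (adjusted p = 0.0112). Of the vesicular carriers 2 of 4 tested were lower (50.0%, against 20.1% of all genes; median -1.77), Slc17a6, the vesicular glutamate carrier VGLUT2, from 3.99 ± 2.56 to 0.127 ± 0.142 CPM (adjusted p = 0.00032) and Slc18b1, a vesicular polyamine carrier, from 1.49 ± 0.268 to 0.119 ± 0.110 CPM (adjusted p = 0.00307). Both passed the filter on low counts through WT alone, every cKO library being under its cutoff of 0.368 CPM. The share and the median of the vesicular carriers therefore follow in part from the filter. Among 17 tested carriers of amino acids and peptides in other families, 1 was higher and 3 lower. This is 23.5%, against 40.2% of all genes, with a median log2 fold change of -0.19. Slc25a13, the mitochondrial aspartate-glutamate carrier citrin, fell from 56.0 ± 3.45 to 7.88 ± 1.94 CPM (adjusted p = 2.33e-06). Slc25a29, a mitochondrial carrier of basic amino acids, fell from 1.13 ± 0.195 to 0.115 ± 0.106 CPM (adjusted p = 0.00696), and Pqlc2, which exports cationic amino acids from lysosomes, fell from 16.7 ± 1.65 to 10.4 ± 0.850 CPM (adjusted p = 0.0127). In cKO the mean of Slc25a29 lay under the cutoff of 0.368 CPM, so this gene too passed the filter through WT.

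The label of the cells was checked against markers. The 10 oocyte markers summed to between 23378 and 28732 CPM per library, led by Gdf9 and Bmp15, which were not called. Of these markers 4 were higher in cKO (Zp2, Zp3, Figla and Nobox) and 1, Nlrp5, was lower, which is 50.0% called against 40.2% of all genes. The granulosa and cumulus markers summed to 86.9 to 93.0 CPM in WT and 68.6 to 70.7 CPM in cKO. Of the 9 tested, 3 were called lower in cKO (Inha, Gja1 and Hsd17b1), which is 33.3% against 20.1% of all genes. The most abundant, Cyp19a1 (37.6 ± 2.05 and 34.1 ± 1.88 CPM) and Nr5a2 (23.3 ± 2.48 and 19.0 ± 3.49 CPM), were not called. Fshr (1.26 ± 0.636 and 2.39 ± 0.0492 CPM, without overlap) and Kitl (5.61 ± 0.552 and 6.28 ± 1.71 CPM) had higher means in cKO and were not called. The theca and luteal markers summed to 19.0 to 26.1 CPM in WT and 16.9 to 19.3 in cKO, with Hsd3b1 lower. The blood markers summed to at most 0.461 CPM. The neuron markers summed to 119 to 150 CPM in WT and 110.1 to 124 CPM in cKO, mostly from Th, and none of the 4 tested was called. The granulosa sum was thus lower in cKO, as were the 7 carriers called lower, and its part in those results was not tested.

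The carriers called lower had a median transcript GC content of 43.05%, and those called higher one of 53.4%. It was 38.7% to 49.5% in the 7 called lower, with Slc6a14 lowest and Slc6a20a highest, and 48.2% to 56.8% in the 7 called higher, with Slc6a5 lowest and Slc6a9 highest. Over all genes the medians were 47.7% for those called lower and 52.4% for those called higher. Across the 39 tested members the Spearman correlation of GC content with log2 fold change was 0.39, against 0.24 across 13056 genes of known GC content. Genes are not independent replicates, so these values describe the pattern and carry no p. For exonic length the correlation was -0.27 across the members and -0.19 across all genes, and for the share of C at the third codon position it was 0.27 and 0.15. After removal of the length and GC trend 6 members were called higher and 6 lower, Slc38a7 and Slc7a11 being the calls that ended.

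**Figure D5:**
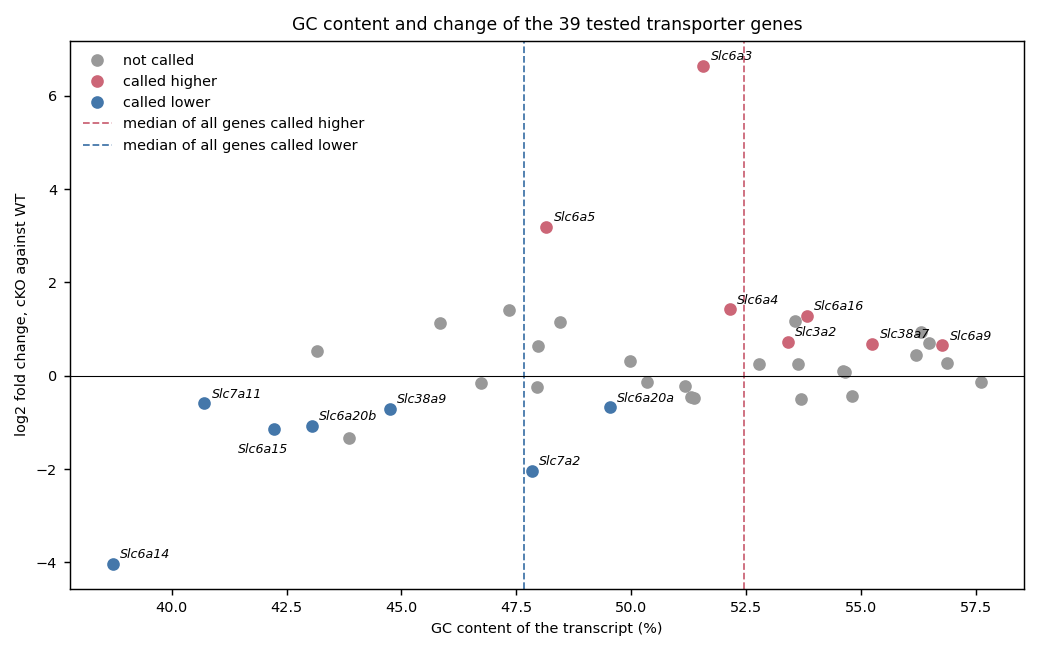
Log2 fold change of cKO against WT against transcript GC content (%) for the 39 tested carriers, coloured by call; the dashed lines mark the median GC content of all genes called higher (52.4%) and lower (47.7%). The 7 carriers called lower lie between 38.7% and 49.5% and the 7 called higher between 48.2% and 56.8%; with spike-in scaling Slc3a2, Slc6a9, Slc6a16 and Slc38a7 were not called.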

How the data were processed

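The authors deposited raw counts per gene symbol for 6 libraries, with coordinates and exonic lengths in the featureCounts layout, per the file headers. Trim Galore 0.6.7, STAR 2.7.10a, featureCounts and the mm10 build are named in the submitters' processing notes; the strand and multi-mapping settings are not given in the sources used here. Reads of overlapping genes, antisense partners and near-identical copies can therefore not be told apart. Smart-seq2 carries no molecular identifiers, so the stated limits cover counting error only. A second deposited table gives fractions of mapped and of ERCC spike-in reads per library; its denominator is not stated and was taken to be all reads.

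Counts were analysed with edgeR 4.0.16 in R 4.3.3 (TMM, filterByExpr with a minimum count of 10, quasi-likelihood F test of the genotype with no block, Benjamini-Hochberg over 14114 genes). The standard error is the size of the log2 fold change divided by the square root of F, and the biological coefficient of variation was 0.215. The fit was tested on simulated data. Alternatives were DESeq2 1.42.0, limma-voom (limma 3.58.1), library totals, spike-in scaling, no filter or a stricter filter (50 counts in 3 libraries), removal of a length trend or a length and GC trend (mgcv 1.9.3), a replicate block, and leaving out each library. Replicates differed by more than counting noise (chi-square per degree of freedom 19 to 43.1).

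GC content, codon composition and shared 50-base stretches came from GENCODE M21 transcripts of GRCm38, the mm10 assembly. The stretches cover all transcripts of a gene, which can hold more than the exons counted. Exon overlaps came from the exon coordinates of the deposited counts. Promoter windows came from RefSeq GRCm38.p6, in which 45 of 63 members matched. Groups came from titles and genotype labels. The rule for named genes took Nat10, every called member, the 10 most abundant members, up to 3 called genes of smallest p per pathway list, called or most abundant markers, and genes within 200 kb of Slc6a3; other members are named so that their substrate group is accounted for. The members, lists and tests were chosen with earlier results of these data known. Not every member is reported by name here.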

Additional observations from a re-analysis of the deposited data

How the results depend on the processing

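The 7 members called higher and 7 called lower became 3 and 11 with spike-in scaling, which shifted the median log2 fold change of all genes to -0.39; Slc43a3, Slc6a6, Slc7a1 and Slc7a7 were added to those lower. The summed level in cKO, 109.6% of WT, was 118.6% with library totals (all-gene median 0.12), 83.3% with spike-in scaling and 84.7% without Slc3a2 and Slc6a9. The change of Slc38a8, 0.10, turned to -0.30 with spike-in scaling and to -0.12 after removal of the length and GC trend, an alternative chosen after seeing the data; the cause was not tested. With each library left out in turn, 5 to 9 members were higher, 7 to 8 were lower, and the summed level was 107% to 112% of WT. Of 253 values of 17 named members under 15 alternatives, 238 kept direction and side of the threshold, 11 lost and 2 gained the call, and 2 turned. The stricter filter removed Slc6a5 and Slc6a14 before the test.

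With the replicate number as a block (replicate block), 9 members were higher and 8 lower, including all 14 called without it and adding Slc6a12, Slc7a5 and Slc7a1. Of the 14114 genes tested, 3089 were then higher and 3110 lower. DESeq2 called 8 members higher and 8 lower, limma-voom 8 and 7. Over all genes DESeq2 called 3020 higher and 2956 lower, and limma-voom 2855 and 2919. Deviations of same-numbered libraries correlated at -0.02, 0.06 and 0.106, and those of differently numbered libraries at -0.11 to 0.065. Such small values cannot settle whether the numbers pair the libraries. Groups of 3 libraries and WT levels near 3 counts limit Slc6a3, Slc6a5 and, in cKO, Slc6a14.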
